A study of Homo sapiens with 6 samples.

Results

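The ZNF genes of chromosome 19 were followed in U251 cells, a human glioblastoma line, after transfection with a plasmid for STING. They were taken as the rows on chromosome 19 whose symbol is ZNF followed by digits alone and whose transcript types include protein_coding. This gave 240 of the 42307 genes listed. RNA had been sequenced from cells labelled wild type at day 3 after transfection, with 1 ug of plasmid per well, and 3 libraries had received a negative control plasmid and 3 a STING overexpression plasmid. The cells were grown in DMEM with 10% fetal bovine serum. The promoter that drives STING on the plasmid was not stated in the labels. The labels do not say whether replicates were separate cultures, so each p-value covers the spread of these libraries alone, and that spread may be technical.

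Most genes of this set encode C2H2 zinc finger proteins, in which arrays of fingers read DNA sequence. Many also carry a KRAB domain, which recruits the corepressor TRIM28 and, through it, the histone methyltransferase SETDB1 and HP1 proteins. The family expanded by tandem duplication and lies in clusters on chromosome 19. Many of its proteins bind transposable elements and keep them silent. The deposited tables carry KEGG orthology terms, and 181 of the 240 genes had the term for KRAB domain-containing zinc finger proteins (K09228). The other 59 lacked the term, which does not show that they lack the domain.

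As a group the chromosome 19 ZNF genes shifted upward by a small amount in the STING libraries, and few passed the test singly. Of the 230 that could be tested 8 rose, 0 fell and 222 did not pass, by the quasi-likelihood test of edgeR (Benjamini-Hochberg adjusted p over all 21679 genes tested, threshold 0.05). The 8 were 3.48% of those tested, whereas 0.604% of all genes tested were called higher and 0.89% lower. In 71 of the 230 genes (30.9%) each STING library lay above each control library, against 10.1% of all genes tested. The reverse order held in 5 genes (2.17%, against 9.73%). Without adjustment, 67 genes with a positive estimate had an edgeR p below 0.05 (29.1%, against 7.17% of all genes tested) and 3 with a negative one did (1.30%, against 7.2%). Among 216 tested ZNF genes of other chromosomes, 20.8% had each STING library above each control library and 5.56% the reverse. An unadjusted edgeR p below 0.05 was found for 15.3% of them with a positive estimate and 3.24% with a negative one.

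The sizes were small. The estimate was positive in 188 of the 230 genes. Their median log2 fold change was 0.126, a factor of 1.09, with quartiles of 0.039 and 0.207, whereas the median over all genes tested was 0.001. The genes took 0.412%, 0.405% and 0.416% of all counts in control libraries 1 to 3, and this share was 0.450%, 0.480% and 0.448% with the STING plasmid. All 3 STING libraries were above all 3 control libraries in this share, with STING library 2 the highest. In bulk RNA, more cells that express a gene and more RNA of it per cell cannot be told apart.

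The count of 8 rested on the full set of libraries. It was 1 without control library 1, 2 or 3 or STING library 2, 4 without STING library 3 and 7 without STING library 1. Of these 7 only 5 were among the 8. ZNF616, ZNF419 and ZNF550 were lost there, and ZNF222 and ZNF627 were added. ZNF114 passed in all of these fits. With DESeq2 21 of the genes were higher and 0 lower. With limma-voom 2 were higher. The median moved less than the count, between 0.095 and 0.141 with any 1 library left out.

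ZNF114, which has the KRAB term (ENSG00000178150, chromosome 19, 48270081 to 48287608, plus strand, in coordinates that match GRCh38), showed the largest rise among the members with a mean of at least 1 CPM. CPM stands for counts divided by the library total, in units of 1e6 reads, with TMM scaling. It stood at 11.2, 12.1 and 11.4 CPM in the control libraries and at 17.4, 18.0 and 19.03 CPM in the STING libraries. The groups were far apart, with a ratio of 1.44 between the lowest STING and the highest control value. The mean rose from 11.6 ± 0.442 to 18.2 ± 0.826 CPM (SD, n = 3 per group). This was a log2 fold change of 0.65 (SE, standard error, 0.085, edgeR adjusted p = 0.00174). No other tested model overlaps it, and 1.59% of its 50-base words occur in transcripts of other genes. It also passed under each of the 18 alternatives tried.

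ZNF473 (ENSG00000142528, chromosome 19, 50025714 to 50053414, plus strand), also named ZFP100, is known as a partner of the U7 particle that processes the ends of histone messenger RNAs. It is the nearest member to ZNF114 on its distal side, 1756 kb away between starts. It stood at 32.6, 31.0 and 33.2 CPM with the control plasmid and at 40.6, 43.5 and 38.6 CPM with the STING plasmid. Each STING library was above each control library. Its log2 fold change was 0.34 (SE 0.063, edgeR adjusted p = 0.0135). It lost the call without any 1 control library or without STING library 2, with adjusted p up to 0.103.

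ZNF675 (ENSG00000197372, chromosome 19, 23525631 to 23687212, minus strand) encodes a protein known to bind and inhibit the signalling adaptor TRAF6. It stood at 23.01, 27.8 and 27.4 CPM in the control libraries and at 31.9, 34.2 and 32.7 CPM in the STING libraries. Control library 1 was the lowest, and the groups did not overlap. Its log2 fold change was 0.34 (SE 0.076, edgeR adjusted p = 0.0387). ZNF616 (ENSG00000204611, chromosome 19, 52113091 to 52139938, minus strand) stood at 18.6, 17.9 and 15.9 CPM and at 23.3, 22.4 and 21.3 CPM. These groups did not overlap either, and its log2 fold change was 0.36 (SE 0.081, edgeR adjusted p = 0.0409).

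ZNF441 (ENSG00000197044, chromosome 19, 11767000 to 11784078) and ZNF844 (ENSG00000223547, chromosome 19, 12064731 to 12081565) lie on the plus strand in the same cluster. ZNF441 stood at 14.9, 16.7 and 16.5 CPM in the control libraries and at 19.96, 22.0004 and 19.98 CPM in the STING libraries. ZNF844 stood at 27.7, 23.7 and 26.1 CPM and at 31.1, 37.5 and 31.5 CPM. In both genes STING library 2 was the highest and the groups did not overlap. The log2 fold changes were 0.37 for ZNF441 (SE 0.082, edgeR adjusted p = 0.0373) and 0.37 for ZNF844 (SE 0.082, edgeR adjusted p = 0.0366). A model on the same strand, AC022415, overlaps ZNF844 and had a log2 fold change of 0.09. The sum of ZNF844 and AC022415 was 40.8 ± 2.41 and 49.4 ± 3.59 CPM (SD, n = 3), without overlap between the groups.

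ZNF419 (ENSG00000105136, chromosome 19, 57487711 to 57496097, plus strand) and ZNF550 (ENSG00000251369, chromosome 19, 57535257 to 57559863, minus strand) lie near the end of the long arm. ZNF419, the source of a known minor histocompatibility antigen, stood at 20.9, 19.8 and 21.0 CPM with the control plasmid and at 27.3, 27.1 and 23.6 CPM with the STING plasmid. ZNF550 stood at 28.5, 23.8 and 28.4 CPM and at 33.99, 38.5 and 31.9 CPM. STING library 3 was the lowest of its group in both genes but still above every control library. The log2 fold changes were 0.34 (SE 0.076, edgeR adjusted p = 0.0376) and 0.37 (SE 0.085, edgeR adjusted p = 0.0443). Of the 50-base words of ZNF419 12.2% occur in transcripts of other genes, so its counts are less certain. ZNF549 overlaps ZNF550 on the opposite strand, and whether the counting used strand was not stated. The sum of both was 47.5 ± 2.69 and 58.8 ± 2.70 CPM (SD, n = 3), again without overlap.

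**Figure D1:**
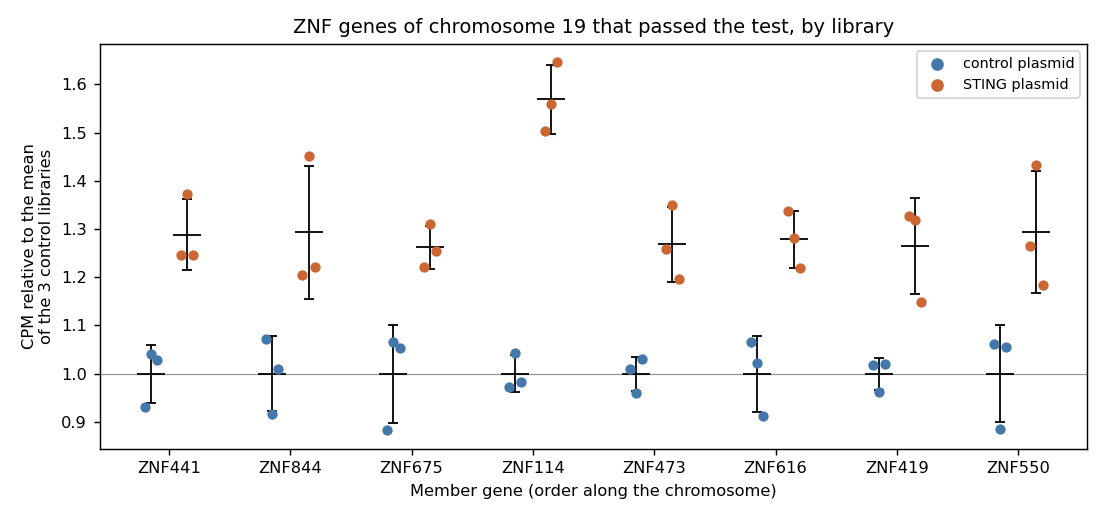
CPM of the 8 ZNF genes of chromosome 19 that passed the test, divided by the mean of the 3 control libraries (vertical axis), in order along the chromosome (horizontal axis). Points are libraries, blue for the control and orange for the STING plasmid, with group mean and SD as bars. In each gene all 3 STING points lie above all 3 control points, and ZNF114 is farthest from 1.

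The 7 members other than ZNF114 had similar estimates, between 0.34 and 0.37, and each of them lost its call without at least 4 of the 6 libraries in turn. With any 1 library left out their log2 fold changes stayed positive, between 0.25 and 0.43. With per-library correction for GC content and transcript length ZNF675, ZNF616 and ZNF550 lost the call, and ZNF114, ZNF473, ZNF844, ZNF441 and ZNF419 kept it. With limma-voom ZNF473 kept the call and the other 6 lost it, with adjusted p from 0.0771 to 0.106.

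The promoters of the genes that rose are shown to compare the short words they hold, some of which recur in several of them. RefSeq promoter windows (GRCh38.p14, 250 bases before to 50 after the start) were matched by symbol for 209 of the 240 genes, among them 6 of the 8 that rose. Capitals mark matches on either strand to the CCAAT box, the GC box (GGGCGG), the TATA box (TATAAA) and an ETS site (CCGGAAGT). They also mark 9 letters of the interferon response element (GAAANNGAA), of a kappa B site (GGGACTTTC) or of a word here called A (GTNACTCAG), and a word here called B (ACTACATT). A longer form of the CCAAT box (CCAATCAG) overlaps it. Words A and B and the longer box were chosen after the sequences were seen. ZNF441, ZNF844 and ZNF675 share word A followed by the longer CCAAT box.
ZNF441, chr19:11766750-11767049, plus strand: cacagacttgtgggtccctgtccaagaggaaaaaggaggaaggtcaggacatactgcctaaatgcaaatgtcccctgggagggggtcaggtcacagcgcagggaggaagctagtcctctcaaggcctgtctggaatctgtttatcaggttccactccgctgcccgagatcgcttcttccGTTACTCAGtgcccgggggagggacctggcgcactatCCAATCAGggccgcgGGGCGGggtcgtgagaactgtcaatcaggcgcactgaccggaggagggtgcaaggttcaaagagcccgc
ZNF844, chr19:12064481-12064780, plus strand: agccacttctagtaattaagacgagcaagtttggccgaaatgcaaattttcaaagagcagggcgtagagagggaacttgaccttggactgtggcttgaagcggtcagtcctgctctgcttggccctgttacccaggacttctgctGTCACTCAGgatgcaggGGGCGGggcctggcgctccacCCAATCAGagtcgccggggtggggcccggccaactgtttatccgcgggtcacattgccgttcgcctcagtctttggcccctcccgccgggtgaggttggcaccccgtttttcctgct
ZNF675, chr19:23687163-23687462, minus strand: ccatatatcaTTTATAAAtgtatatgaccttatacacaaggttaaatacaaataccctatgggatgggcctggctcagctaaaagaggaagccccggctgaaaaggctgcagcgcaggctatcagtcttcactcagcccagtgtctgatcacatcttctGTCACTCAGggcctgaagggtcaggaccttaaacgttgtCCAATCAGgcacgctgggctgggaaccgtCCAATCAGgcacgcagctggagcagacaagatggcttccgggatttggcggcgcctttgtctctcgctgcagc
ZNF419 and ZNF550 share word B and, nearer the start, a GC box followed after 1 base by an ETS site on the other strand.
ZNF419, chr19:57487500-57487799, plus strand: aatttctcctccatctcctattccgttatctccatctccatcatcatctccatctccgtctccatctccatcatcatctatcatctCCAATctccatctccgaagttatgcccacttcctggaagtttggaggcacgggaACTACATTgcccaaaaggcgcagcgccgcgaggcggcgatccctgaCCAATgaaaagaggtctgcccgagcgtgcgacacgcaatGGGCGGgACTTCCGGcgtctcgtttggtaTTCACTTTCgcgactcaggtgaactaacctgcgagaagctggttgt
ZNF550, chr19:57559814-57560113, minus strand: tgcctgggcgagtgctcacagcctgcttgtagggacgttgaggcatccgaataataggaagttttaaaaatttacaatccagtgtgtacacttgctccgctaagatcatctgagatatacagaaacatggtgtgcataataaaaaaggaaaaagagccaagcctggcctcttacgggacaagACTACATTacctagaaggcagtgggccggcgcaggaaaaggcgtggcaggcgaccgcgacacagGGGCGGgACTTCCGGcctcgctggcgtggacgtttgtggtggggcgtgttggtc
ZNF616 shares none of these words apart from the GC box, of which it holds 4, all on the other strand.
ZNF616, chr19:52139889-52140188, minus strand: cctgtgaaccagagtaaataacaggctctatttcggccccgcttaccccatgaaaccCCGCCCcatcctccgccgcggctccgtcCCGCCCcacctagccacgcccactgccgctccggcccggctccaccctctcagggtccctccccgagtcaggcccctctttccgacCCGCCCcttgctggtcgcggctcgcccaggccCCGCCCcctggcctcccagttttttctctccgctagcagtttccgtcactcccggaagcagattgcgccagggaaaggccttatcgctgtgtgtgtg

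The shares of promoters with these words differed, some above and some below the share over all promoters. The longer CCAAT box was found in 27.3% of the 209 promoters of the set, in 13.1% of 191 promoters of ZNF genes on other chromosomes and in 5.30% of 13926 promoters of protein-coding genes. Word A was found in 16.7%, 5.76% and 1.39% of them, and word B in 15.8%, 3.66% and 1.16%. The ETS site was found in 19.1% of the promoters of the set and 6.83% of all. The letters of the interferon response element were found in 7 promoters of the set (3.35%, against 6.88% of all), ZNF419 among them, and those of the kappa B site in 0 (against 0.381% of all). For the kappa B site only this exact string was searched. Variants were not counted, such as GGGACTTCC in the printed promoters of ZNF419 and ZNF550. The TATA box was found in 1.91% of the set and 8.30% of all. The CCAAT box was found in 53.1% and 36.3% and the GC box in 69.9% and 62.3%. Promoters of tandem duplicates share descent and are not independent. A match is a string of letters and shows no binding.

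The genes of the set were mostly expressed at low levels. Per transcript length, on the scale of the authors' FPKM, the median of the 240 genes was 2.498, and 192 had a mean of at least 1. The highest was ZNF146, which encodes a protein made almost only of zinc fingers. It stood at 29.1 ± 1.04 FPKM with the control plasmid and 31.4 ± 2.45 FPKM with the STING plasmid (SD, n = 3). Next were ZNF428 at 21.4 ± 1.07 and 22.6 ± 1.91 FPKM and ZNF317 at 15.2 ± 0.596 and 16.9 ± 0.395 FPKM. ZNF587 followed at 10.2 ± 0.332 and 11.3 ± 0.314 FPKM and ZNF841 at 7.90 ± 0.200 and 9.29 ± 0.578 FPKM. Of these 5 neighbouring levels in the control group none overlapped within 1 SD. None of these 5 genes passed the test. In ZNF317, ZNF587 and ZNF841 every STING library was above every control library in CPM, with log2 fold changes of 0.13, 0.13 and 0.21 and edgeR adjusted p of 0.211, 0.186 and 0.0977. For ZNF587, 18.8% of its 50-base words occur in other genes.

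**Figure D2:**
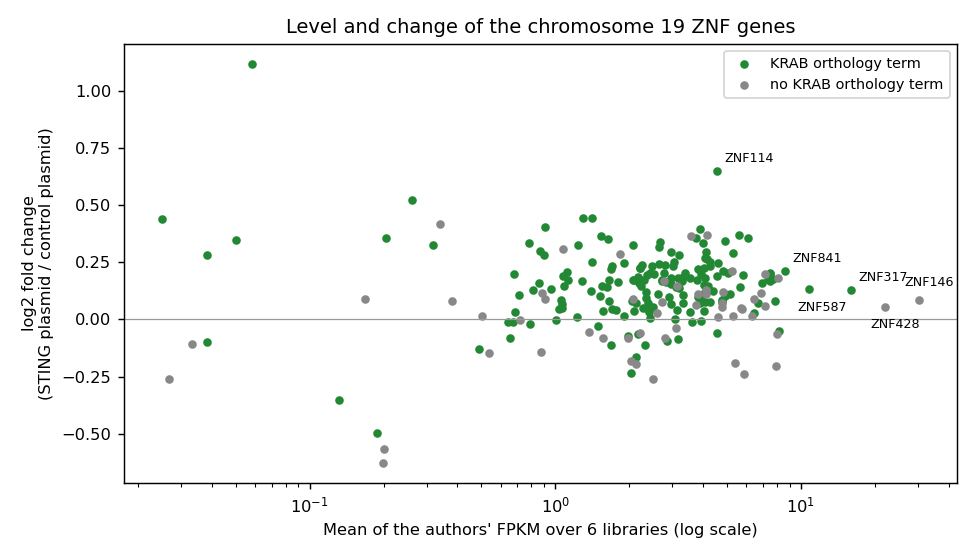
Mean of the authors' FPKM over the 6 libraries (horizontal axis, log scale) against the log2 fold change of STING over control plasmid (vertical axis), 1 point per tested ZNF gene of chromosome 19, green with and grey without the KRAB orthology term. The highest genes, from ZNF841 up to ZNF146, lie between 0.06 and 0.21, and the widest scatter is at low FPKM.

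At the other end 10 genes were too low to test, with at most 10 counts in any library. Among them ZNF723, ZNF541, ZNF534 and ZNF135 had 0 counts in all 6 libraries, and 3 counts correspond to 0.0388 to 0.0424 CPM at these depths. Of the 230 tested genes 224 reached 10 counts in every library. ZNF497 had 0, 240 and 98 counts in the control and 123, 0 and 255 in the STING libraries, so its estimate is not usable. By level, the median log2 fold change was 0.076 in the 34 tested genes under 5 CPM, 0.110 in the 40 from 5 to 10 CPM, 0.162 in the 70 from 10 to 20 CPM and 0.125 in the 86 above. Estimates were positive in 80 of these 86.

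Members with a described function were examined by name. ZNF91 and ZNF93 are repressors of primate retroelements of the SVA and LINE classes. ZNF91 stood at 40.8, 42.1 and 45.05 CPM in the control and at 45.1, 49.0 and 43.6 CPM in the STING libraries, which overlapped (log2 fold change 0.11, edgeR adjusted p = 0.491). ZNF93 stood at 23.1, 22.1 and 23.2 CPM and at 27.0, 29.4 and 26.0 CPM. These did not overlap, but the gene did not pass (log2 fold change 0.27, SE 0.071, edgeR adjusted p = 0.0778). With scaling to total counts, the stricter filter or DESeq2 it did pass.

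ZNF274 binds the coding ends of other zinc finger genes and brings SETDB1 to them. It stood at 47.1, 41.1 and 43.5 CPM with the control plasmid and at 52.0, 52.0 and 48.4 CPM with the STING plasmid. The groups did not overlap, with a log2 fold change of 0.21 (SE 0.062) and an edgeR adjusted p of 0.107. ZNF85 and ZNF350, the latter a partner of BRCA1, also had groups without overlap, with log2 fold changes of 0.18 and 0.18 (edgeR adjusted p = 0.362 and 0.315). The other examined members had overlapping groups and smaller estimates. These were 0.07 for ZNF43, 0.09 for ZNF568, which in mouse represses a placental Igf2 transcript, 0.07 for ZNF331, which is imprinted, and 0.12 for ZNF175, known for repressing the HIV promoter. ZNF426, a repressor of a Kaposi sarcoma herpesvirus activator, had 0.11 and ZNF146 had 0.08, and their edgeR adjusted p lay between 0.517 and 0.805 for these 6 genes.

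The largest estimates outside the genes that passed were uncertain. ZNF540 stood at 1.05, 0.974 and 1.09 CPM in the control libraries and at 2.10, 1.022 and 1.34 CPM in the STING libraries, so STING library 1 was the high one (log2 fold change 0.52, SE 0.289, edgeR adjusted p = 0.452). ZNF383 stood at 9.47, 7.86 and 15.4 CPM and at 17.1, 16.7 and 10.7 CPM (log2 fold change 0.44, SE 0.345, edgeR adjusted p = 0.685). The most negative estimate at 1 CPM or more was that of ZNF154 (−0.49, SE 0.295, edgeR adjusted p = 0.495), which lies inside ZNF551 on the opposite strand. The groups overlapped in all 3 genes.

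ZNF653 and ZNF580, both without the KRAB term, had the next most negative estimates at a mean of at least 1 CPM. ZNF653 stood at 10.53, 9.73 and 8.30 CPM and at 8.07, 7.28 and 8.502 CPM (log2 fold change −0.26, edgeR adjusted p = 0.334). ZNF580 stood at 18.1, 17.7 and 18.0 CPM in the control and at 15.1, 15.5 and 14.9 CPM in the STING libraries. Here the groups did not overlap (log2 fold change −0.24, SE 0.077, edgeR adjusted p = 0.143). ZNF580 overlaps ZNF581 and CCDC106 on the same strand, and its sum with ZNF581 was 30.4 ± 0.252 and 28.1 ± 2.41 CPM (SD, n = 3). CCDC106 had a log2 fold change of −0.26 (edgeR adjusted p = 0.102).

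Along the chromosome the genes fell into 9 clusters, runs of at least 5 members with gaps of at most 1 Mb between starts, and 9 scattered genes. The median log2 fold change was positive in each cluster, from 0.071 in cluster 5 (34.7 to 35.0 Mb, 5 genes tested) to 0.267 in cluster 1 (2.82 to 2.94 Mb, 4 genes tested). Cluster 9 at the end of the long arm (55.5 to 58.5 Mb) was the largest, with 56 tested genes and a median of 0.101. It had 42 positive estimates and 2 genes that rose (3.57%, against 0.604% of all genes tested). Cluster 8 (51.6 to 53.6 Mb) had a median of 0.112 over 37 genes and 1 gene that rose (2.70%). In cluster 8, 15 genes (40.5%) had every STING library above every control library, and in cluster 9, 18 genes (32.1%), against 10.1% of all genes tested. The reverse order held in 0 genes of cluster 8 and 3 of cluster 9 (5.36%), against 9.73% of all.

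Cluster 7 (43.5 to 45.1 Mb) had a median of 0.194 over 23 genes, 21 of them positive, and 0 passed singly. At an unadjusted edgeR p under 0.05, 9 were higher (39.1%, against 7.17% of all genes tested) and 0 lower (against 7.2%). Cluster 4, next to the centromere (19.7 to 24.1 Mb), had a median of 0.168 over 33 genes, and ZNF675 was the 1 gene that rose (3.03%). The summed level of its genes was 467, 483 and 490 CPM in the control libraries and 522, 559 and 514 CPM in the STING libraries. Clusters 2 (7.07 to 9.79 Mb), 3 (11.5 to 12.6 Mb) and 6 (36.2 to 37.8 Mb) had medians of 0.114, 0.108 and 0.116 over 14, 25 and 25 genes. The most abundant member per length was ZNF57 in cluster 1, ZNF317 in cluster 2, ZNF700 in cluster 3, ZNF724 in cluster 4, ZNF302 in cluster 5, ZNF146 in cluster 6, ZNF428 in cluster 7, ZNF841 in cluster 8 and ZNF587 in cluster 9. None of these 9 passed. Of the 50-base words of ZNF700 18.1% and of ZNF724 48.3% occur in other genes. The order of cluster medians was not tested.

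**Figure D3:**
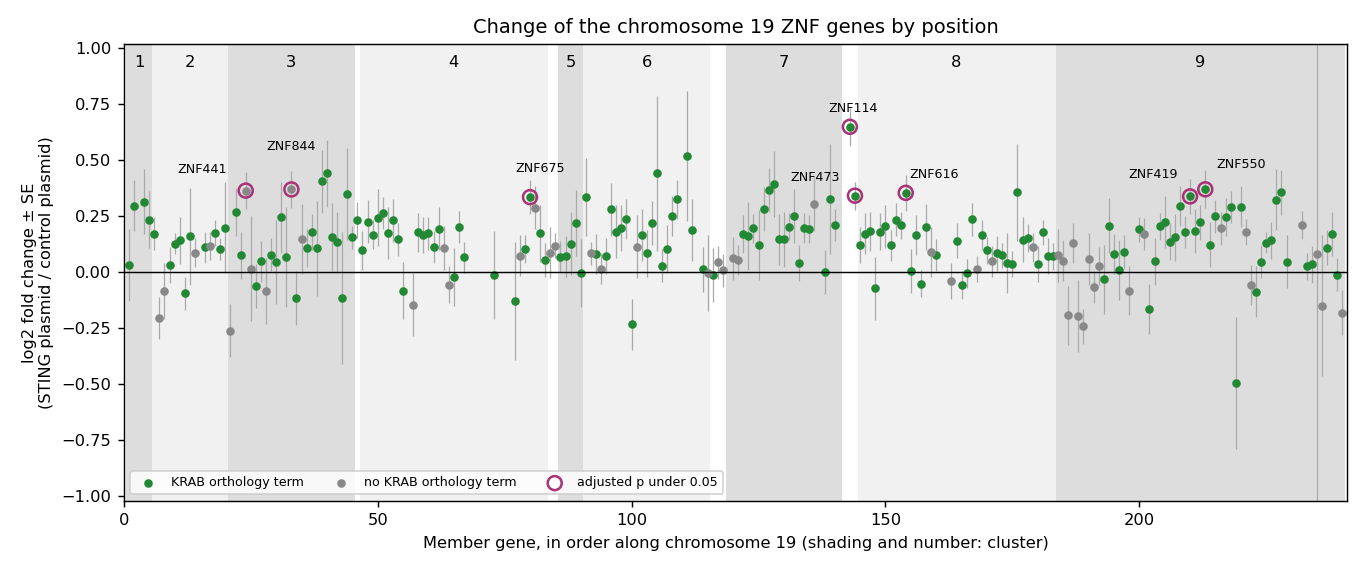
Log2 fold change ± standard error (vertical axis) of the 218 ZNF genes with a mean of at least 1 CPM, in their order along chromosome 19 (horizontal axis), with the 9 clusters shaded and numbered. Rings mark the 8 genes that passed the test, and the bar of ZNF497, with a standard error of 1.99, runs past the axis. Points above 0 prevail in every cluster, and the 8 rings are spread over clusters 3, 4, 8 and 9 and the scattered genes.

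Direct neighbours of the genes that rose did not pass, apart from ZNF114 and ZNF473, which are each other's neighbours among the tested members. ZNF441 lies 45.7 kb from ZNF823 (log2 fold change 0.08) and 30.7 kb from ZNF491 (0.02), and ZNF616 lies 40.8 kb from ZNF836 (0.01) and 48.6 kb from ZNF841 (0.21). ZNF844 lies 20.9 kb from ZNF878 (0.07) and 28.1 kb from ZNF20 (−0.11), and ZNF675 lies between ZNF91 (0.11) and ZNF681 (0.29). Beside ZNF419 and ZNF550 the estimates of the 4 neighbours were 0.18 and 0.19 (ZNF772 and ZNF773) and 0.22 and 0.12 (ZNF549 and ZNF416).

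Members with the KRAB term had higher estimates than those without it. Of 175 tested genes with the term 6 rose (3.43%, against 0.604% of all genes tested), 0 fell and 153 had a positive estimate. Their median log2 fold change was 0.161. Of 55 without the term 2 rose (3.64%, ZNF441 and ZNF844), 0 fell and 35 were positive, with a median of 0.053. The share that rose was similar in both groups. Every STING library lay above every control library in 34.9% of the first and 18.2% of the second, against 10.1% of all genes tested. The difference was not tested. The median GC content of the longest transcript was 41.9% with the term and 45.8% without it, and all 17 genes at or above 60% lacked it. Over the 175 tested genes with the term, GC content and log2 fold change correlated at −0.014 (Pearson) and 0.031 (Spearman). Over all 230 they correlated at −0.247 and −0.121. The part of GC content in the difference was not tested.

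The same groups were set beside ZNF genes elsewhere and other genes of the chromosome. Of 216 tested protein-coding ZNF genes on other chromosomes 1 rose (0.463%, against 0.604% of all genes tested) and 0 fell. Their median log2 fold change was 0.065, with 147 positive estimates. With the KRAB term it was 0.085 over 88 genes, without it 0.058 over 128. Of 840 other protein-coding genes of chromosome 19 2 rose (0.238%) and 14 fell (1.67%, against 0.89% of all genes tested), with a median of −0.057. The difference between these groups was not tested. Median GC content was 42.2% in the ZNF genes of chromosome 19, 45.7% in the other ZNF genes, 60% in the other genes of the chromosome and 47.9% over all genes tested.

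Each library was then compared with the mean of the controls. The median over the 230 genes (log2) was 0.011, −0.026 and 0.009 for the control plasmid, and for the STING plasmid it was 0.116, 0.183 and 0.0998 in libraries 1 to 3. The other ZNF genes had 0.055, 0.096 and 0.062 in the STING libraries. The other chromosome 19 genes had 0.023, −0.097 and −0.079. STING library 1 differed from the other 2 in its trend with GC content. The change per 10% of GC was 0.014, 0.044 and 0.018 (log2) with the control plasmid. It was 0.032 in STING library 1, −0.068 in library 2 and −0.039 in library 3. The median of the ZNF genes of chromosome 19 lay above 0 in all 3 STING libraries and was highest in library 2. The part of the GC trend in this shift was not tested.

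**Figure D4:**
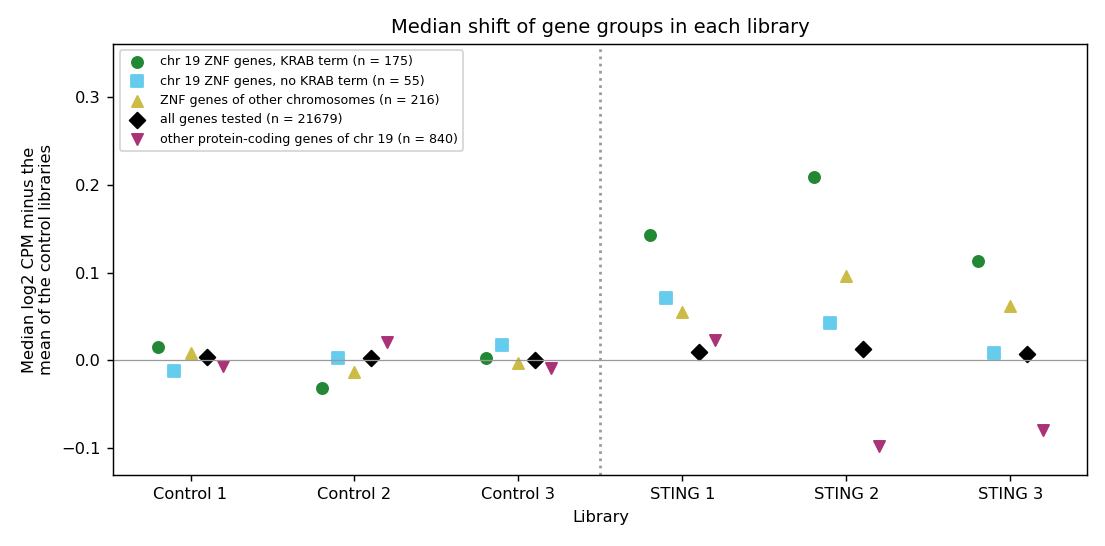
Median log2 CPM minus the mean of the control libraries (vertical axis) for 5 groups of genes in each of the 6 libraries (horizontal axis), with the number of tested genes in the legend. Chromosome 19 ZNF genes with the KRAB term lie highest in each STING library, at 0.142, 0.209 and 0.113, while all genes tested stay at 0.013 or less.

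Within bands of GC content the set was compared with other protein-coding genes. Under 40% GC the median log2 fold change was 0.135 over 67 ZNF genes of chromosome 19 and 0.043 over 2294 other genes. From 40 to 45% it was 0.148 over 98 and 0.037 over 3093, and from 45 to 50% it was 0.171 over 33 and 0.013 over 2493. From 50 to 60% it was 0.061 over 16 and −0.044 over 4525. At 60% and more the 16 ZNF genes, among them ZNF653, ZNF580 and ZNF428, had a median of −0.074, close to −0.072 in 2089 other genes. Against the control mean, in STING library 1 the medians of the 3 lower bands were 0.112, 0.111 and 0.166 in the set and −0.009, −0.007 and 0.021 in the other genes. Under 40% and from 40 to 45%, every STING library lay above every control library in 25.4% and 36.7% of the set. In the other genes of these bands it was 18.0% and 17.7%. The reverse order held in 1.49% and 0% of the set, and in 4.53% and 6.08% of the other genes. When GC content and length were corrected for, the median of the set was 0.108. The differences within bands were not tested.

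**Figure D5:**
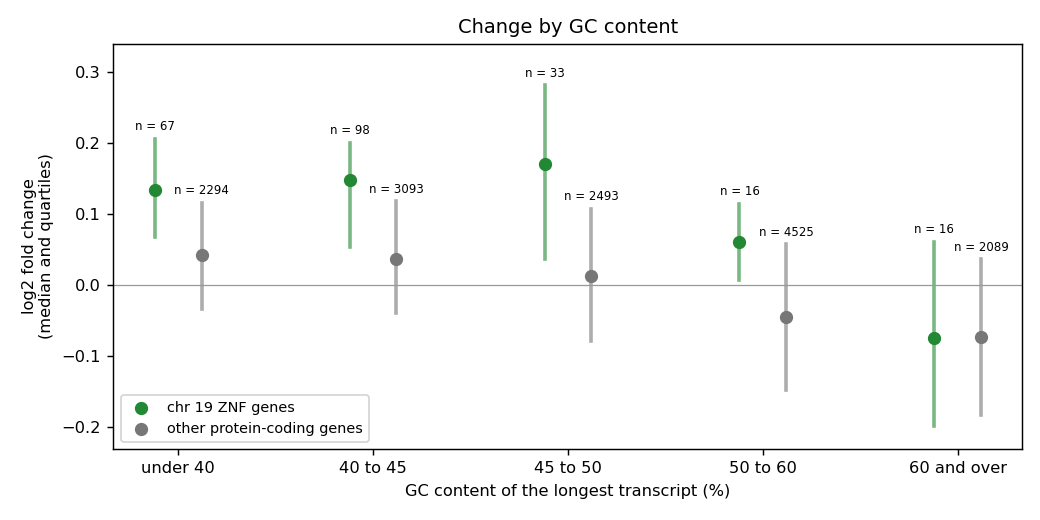
Median (points) and quartiles (lines) of the log2 fold change (vertical axis) by GC content of the longest transcript (horizontal axis), for ZNF genes of chromosome 19 in green and other protein-coding genes in grey, with numbers of genes. The green medians lie above the grey ones in the 4 bands under 60% and meet them at 60% and over.

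Shared sequence limits the counts of this family. In 81 of the 230 tested genes at least 5% of the 50-base words of the GENCODE v29 transcripts occur in another gene, and 55 overlap another tested model on the same strand. How reads that match several genes were placed was not stated. A split was added after the data were seen. The 137 tested genes with neither limit had a median log2 fold change of 0.148 and 6 that rose (4.38%). The other 93 had 0.083 and 2 (2.15%), against 0.604% of all genes tested.

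Silencing machinery was listed as 28 genes, not all of which KRAB proteins recruit. Beside TRIM28, SETDB1, HP1 genes, CHD3, CHD4, HDAC1 and HDAC2 it holds more general genes of heterochromatin, such as DNMT1, UHRF1, ATRX and DAXX. In all 27 were tested, and ZFP57 was not. Of these edgeR called 0, where 0.604% of all genes tested were called higher and 0.89% lower, so that a count of 0 in so short a list is near the background. At an unadjusted edgeR p under 0.05 there were 1 higher (3.70%, against 7.17% of all) and 3 lower (11.1%, against 7.2%). DESeq2 called 2 lower, CHD3 and CHD4, and limma-voom called 0. The list's median log2 fold change was −0.023, with 11 positive and 16 negative estimates. TRIM28, the corepressor bound by KRAB domains, stood at 423 ± 3.44 and 408 ± 29.2 CPM (SD, n = 3, edgeR adjusted p = 0.729). SETDB1 stood at 49.3 ± 1.78 and 50.9 ± 0.922 CPM (SD, n = 3, edgeR adjusted p = 0.805). The chromatin remodellers CHD3 and CHD4 had log2 fold changes of −0.15 and −0.13 (edgeR adjusted p = 0.0927 and 0.124), and MPHOSPH8, a subunit of the HUSH silencing complex, had 0.13 (edgeR adjusted p = 0.339).

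Over the whole series the counts summed to between 71498790 and 76566375 per library. STING1, the gene on the plasmid, had 2360 to 2660 counts in the control and 3596 to 4327 in the STING libraries. With 131 genes higher and 193 lower, the split turned to 246 higher and 138 lower with scaling to total counts, where 10 of the ZNF genes rose and 0 fell. Among 7 glial markers VIM, CD44, NES and SOX2 were abundant, at 108 CPM or more in each group mean, S100B was near 0 (0.250 ± 0.092 and 0.087 ± 0.049 CPM), and GFAP, at 39.1 ± 3.98 and 21.5 ± 3.88 CPM (SD, n = 3), fell with an edgeR adjusted p of 0.033. All 7 glial markers had negative estimates, with a median log2 fold change of −0.156, and in 5 of them (71.4%, against 9.73% of all genes tested) every STING library was below every control library. These were VIM, NES, GFAP, SOX9 and S100B. An edgeR p below 0.05 without adjustment was found for 5 (VIM, NES, GFAP, SOX9 and SOX2), and the part of this shift in the ZNF results was not tested. Markers of other cell types summed to 19.8 to 28.3 CPM in the control and 18.8 to 23.5 CPM in the STING libraries over 9 tested genes of the list, with PTPRC at 4.81 ± 2.76 and 2.16 ± 1.10 CPM, and their part in the results was not tested.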

How the data were processed

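Gene expression was measured by RNA sequencing in 6 libraries of U251 cells, 3 with a negative control and 3 with a STING plasmid. Per the labels' protocols, libraries were made with the Illumina TruSeq kit from 1 ug of Trizol-extracted total RNA. Per the submitters' processing notes Bowtie 0.12.2 was used. The counting program, annotation and build were not stated. The deposited tables hold, per the file headers, the authors' read counts and FPKM values per Ensembl gene. All 240 genes of the set were found in GENCODE v29 on the same strand, and 208 of them matched its start or end to within 1 base, hence the build GRCh38.

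The main test was the two-sided quasi-likelihood test of edgeR 4.0.16 (R 4.3.3) after filterByExpr and TMM scaling, with a robust fit. Each standard error was taken as the size of the log2 fold change over the root of F, an approximation. FPKM served to compare levels between genes and, in limma 3.58.1, as an alternative on log2(FPKM + 0.1) and log2(FPKM + 1). GC content and length are those of the longest GENCODE transcript, and the correction fits splines of both to each library. Other alternatives were RLE, upper-quartile and no scaling, other filters, DESeq2 1.42.0, limma-voom, a replicate block and each library left out. Counts of replicates differed by 12.0 to 23.7 chi-square units per gene, more than counting noise gives, so none was the same library deposited again. This does not show that they were separate cultures. Same-numbered libraries correlated at 0.160, 0.102 and 0.023 in their deviations, so the numbers were not taken to pair them. The procedure was tried on simulated counts with 50 changed genes for each size of change. It recovered 24% of them at a factor of 1.25, 62% at 1.5, 82% at 2 and 98% at 3. Of its calls 9.52% were false, at a threshold of 0.05.

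Named genes were the members that passed, the 3 largest rises and falls at 1 CPM or more, the 5 with the highest FPKM, 12 of known role, the highest of each cluster, and TRIM28, SETDB1 and machinery genes that passed. The members and lists were chosen with earlier results of these data known. CHD3, CHD4, MPHOSPH8, ZNF497, neighbours and overlapping models were named after their values were seen. SDs and standard errors cover the spread of these libraries alone, and the CPM given for 3 counts covers counting error only.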

Additional observations from a re-analysis of the deposited data

How the results depend on the processing

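The median log2 fold change of the ZNF genes of chromosome 19 kept its sign and stayed within the spread of the STING library medians (SD 0.044) under all alternatives tried, from 0.095 to 0.156, and 0 members were called lower in any. The number called higher was 8, and it was 13 with a mean of at least 1 CPM, 21 with DESeq2, 2 with limma-voom, 1 with limma on either FPKM scale, 5 when GC content and length were corrected for, and 1 to 7 with 1 library left out. With the replicate number as a block it was 1, also together with that correction, and ZNF114 was the gene kept, while the other 7 lost the call (adjusted p from 0.0513 for ZNF473 to 0.159 for ZNF550 with the block alone). Over all genes 131 were higher and 193 lower. There were 246 higher with total counts, 255 and 390 (higher and lower) with a mean of at least 1 CPM, 409 and 592 with DESeq2, 58 and 79 with limma-voom, 10 and 3 on log2(FPKM + 0.1), 11 and 3 on log2(FPKM + 1), 202 and 304 with the correction, 55 and 65 with the replicate block, 46 and 64 with both, and 34 to 260 and 26 to 481 with 1 library left out. The silencing machinery had 0 calls, and 2 with DESeq2. ZNF724 changed sign without STING library 2 (−0.016 to 0.127 with 1 library left out). The causes were not tested. Of 576 values of 32 named members under alternatives, 72 lost and 5 gained a call. With gaps of 0.5 Mb the cluster medians ran from 0.040 to 0.267. None of the 34 tested members under 5 CPM had an edgeR p below 0.05 without adjustment, and low depth and a smaller change were not separated there.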
